A study of Mus musculus with 72 samples.

Results

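Blood of male C57BL/6 mice collected 3 days after a whole-body dose of 0.25 Gy of neutrons was compared directly with blood collected 3 days after 1 Gy of x-rays. The comparison used the 11 arrays whose labels carry these exposures and this day, 6 after neutrons and 5 after x-rays, of 72 arrays in the series, and the 5 sham-irradiated control arrays of day 3 served as the unexposed level. The mice were young adults without a transgene or drug, and each array held the RNA of 1 blood sample taken by cardiac puncture when the animal was killed. The neutrons came from an accelerator beam with the energy spectrum of an improvised nuclear device, which also carries gamma rays and gives its dose more slowly than the x-ray machine, and the pair of doses had been chosen from the greater effect of neutrons per unit dose. Radiation type, dose and dose rate therefore differ together between the groups and cannot be told apart. The methods describe restraint in holders on a rotating wheel for the neutron and sham mice, and do not describe it for the x-ray mice. Handling may therefore differ between the exposures too, and between the x-ray mice and the controls. Day 3 is given by the labels and the design text, while the methods of the study describe the other days only, so the handling of the day 3 mice is taken to be as described for those.

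Ionizing radiation breaks DNA, and the transcription factor p53 then switches on genes of cell cycle arrest and death. In blood, B cells are among the cells most readily killed, while platelets and red cells have no nucleus and carry RNA left from the marrow cells that made them, the megakaryocytes and the erythroblasts. Young platelets and reticulocytes, the youngest red cells, hold the most of this RNA, and globin RNA had been depleted from these samples. Levels are given as log2 intensity relative to the median of the detected probes of each array, and a difference is the neutron mean minus the x-ray mean on that scale, with its standard error (SE). A gene was called when its p was below 0.001 and its Benjamini-Hochberg false discovery rate below 0.05 in limma, over 10863 genes. In whole blood, fewer cells of a type and less RNA per cell cannot be told apart. The paper reports no significant change after irradiation in cell death or in the make-up of the white cells. It also reports normal total blood counts on the other days of the study. It gives no counts for the mice compared here, so whether any cell type was lost in them was not tested.

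In the direct comparison no gene passed the test: 0 of 10863 genes were called (0%), and the smallest adjusted p of limma was 0.350. At p below 0.001 with no limit on the false discovery rate there were 10 genes (0.0921%), 9 of them higher after neutrons. At an unadjusted p below 0.05 there were 575 genes lower (5.29%) and 633 genes higher (5.83%) after neutrons. Every neutron mouse lay below every x-ray mouse for 51 genes (0.469%) and above every one for 21 genes (0.193%). For 4518 genes (41.6%) the 95% confidence interval of the difference lay within 1 on either side of 0 on the log2 scale, so that a difference of more than 2-fold was outside the interval, and for the others it was not. The median half-width of the interval was 0.75, which is the precision that 6 and 5 mice gave.

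The exposures were also set against the same 5 control mice. After neutrons 59 genes rose (0.543%) and 68 fell (0.626%), with a smallest adjusted p of 0.0492 in limma, and after x-rays 172 rose (1.58%) and 45 fell (0.414%), with a smallest adjusted p of 0.0284. These calls lay close to the threshold. The count after neutrons was 0 in 8 of 11 fits that left out 1 mouse, and 279 without control replicate 2, 250 without neutron replicate 1 and 245 without neutron replicate 2. The count after x-rays was 0 in 7 of 10 such fits, and 357 without x-ray replicate 1, 325 without control replicate 1 and 313 without x-ray replicate 3. Centring each array on its spike-in controls turned the split to 265 higher and 35 lower after neutrons and to 1 higher and 421 lower after x-rays, while the median of all genes moved to -0.28 and -0.82. Centring on the 75th percentile gave 65 higher and 177 lower after neutrons and 46 higher and 23 lower after x-rays, and quantile normalization gave 69 higher and 131 lower after neutrons. All 5 control arrays and neutron replicates 1 and 2 were scanned on 1 date, on which no x-ray array was scanned, so that the difference between x-rays and controls cannot be told apart from the scan date. The calls against controls given below use median centring.

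Scan dates also divided the direct comparison. Neutron replicates 3, 5 and 6 and x-ray replicates 1 to 4 shared a date, and the other 4 arrays were scanned on 3 other dates, while no slide held both exposures. The share of spots well above background ran from 52.1% to 62.1% after neutrons and from 55.6% to 60.0% after x-rays, and its means differed by -0.12 percentage points (2-sided exact permutation test, p = 0.94, where the smallest p that 6 and 5 arrays allow is 0.0022). Pairs of neutron arrays correlated at 0.931 to 0.987 and pairs of x-ray arrays at 0.828 to 0.979, the low end coming from x-ray replicate 1. Globin genes, which mark blood, were detected: of 8, 7 were well above background on every neutron array, 5 on every x-ray array and 6 on every control array. Liver transcripts were detected too: of 30 hepatocyte genes, 28, 24 and 16 were so on every array of these groups, as described below.

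Platelet and megakaryocyte genes stood lower after neutrons than after x-rays, without a single call. All 20 genes of the list were tested and all 20 had a difference below 0, with a median of -0.98 against 0.01 over all genes, and 14 of the 20 had an unadjusted p below 0.05, beside 5.29% of all genes in that direction. Against controls, 7 of the 20 rose after x-rays (Clec1b, F2rl2, Gp1ba, Gp1bb, Itgb3, Thbs1 and Tubb1; list median 1.34), beside 1.58% of all genes, and 0 of 20 were called after neutrons (list median 0.37), beside 0.543%. The calls after x-rays depend on the scaling. Centring on the spike-in controls left 0 of the 7 and a list median of 0.53, with 1 of 20 genes at an unadjusted p below 0.05 in place of 19, where the median of all genes moved to -0.82. Across the settings tried the count ran from 0 to 18. The 18 came with scan date as a random block, which cannot remove the date, since no date held both groups. These genes include the receptors by which platelets stick and clump, the granule proteins they release and the tubulin that shapes them.

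Many megakaryocyte genes are switched on by GATA1 with its partners and by ETS factors such as FLI1, so the bases before the start of 4 genes of the list are shown, to let the reader see which of these short motifs they hold. The sequences are the 250 bases upstream of the start in RefSeq (GRCm38.p6), 5′ to 3′ on the strand of the gene, with matches to 3 motifs in capitals, on either strand. A match to AGATAA was counted as a GATA motif. So was a match to TGATAA. An ETS motif was a match to AGGAAG.
Itga2b (chr11:102469884-102470133, minus strand): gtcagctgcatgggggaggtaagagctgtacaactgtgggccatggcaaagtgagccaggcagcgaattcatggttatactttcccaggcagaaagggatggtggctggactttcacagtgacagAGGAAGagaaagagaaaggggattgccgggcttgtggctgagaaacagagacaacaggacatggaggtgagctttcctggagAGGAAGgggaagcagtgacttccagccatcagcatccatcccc
Tubb1 (chr2:174450345-174450594, plus strand): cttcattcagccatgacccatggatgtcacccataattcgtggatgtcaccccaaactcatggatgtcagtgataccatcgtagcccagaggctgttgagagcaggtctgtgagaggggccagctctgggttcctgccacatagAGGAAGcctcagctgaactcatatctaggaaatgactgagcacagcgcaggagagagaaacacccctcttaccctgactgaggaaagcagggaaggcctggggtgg
Gp1ba (chr11:70638872-70639121, plus strand): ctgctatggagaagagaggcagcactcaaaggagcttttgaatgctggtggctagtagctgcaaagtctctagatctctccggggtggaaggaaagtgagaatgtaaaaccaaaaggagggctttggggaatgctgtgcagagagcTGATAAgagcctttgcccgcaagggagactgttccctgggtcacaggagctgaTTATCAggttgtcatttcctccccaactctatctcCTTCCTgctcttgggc
Gp5 (chr16:30310782-30311031, minus strand): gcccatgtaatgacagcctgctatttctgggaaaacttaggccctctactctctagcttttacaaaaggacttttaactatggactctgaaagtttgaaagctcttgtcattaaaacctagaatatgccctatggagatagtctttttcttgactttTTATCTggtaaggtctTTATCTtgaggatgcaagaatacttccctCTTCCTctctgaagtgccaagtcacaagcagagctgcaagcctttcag
Of the 20 genes, 13 had an entry. A GATA motif was present in 5 of the 13 (38.5%), against 16.6% of 32851 promoters, an ETS motif in 8 (61.5%), against 29.5%, and both in 3 (23.1%), against 4.72%. Itga2b and Tubb1 held ETS matches alone and Gp1ba and Gp5 held both kinds. These are matches of letters and no test of binding. Clu, Itgb3, Nfe2, Rgs18, Thbs1 and Vwf were among those with no entry in this table.

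Itga2b encodes the alpha chain of the integrin that binds fibrinogen when platelets clump. Its log2 level ran from 1.52 to 2.60 in the 6 neutron mice, with a median of 2.13, and was 5.19, 3.91, 2.15, 3.52 and 3.81 in x-ray replicates 1 to 5. The controls lay at 2.64, 2.02, 2.203, 2.42 and 2.11. Thus 4 of the 5 x-ray mice stood above every neutron and control mouse, and x-ray replicate 3 lay among them. The difference was -1.56 (SE 0.44, limma adjusted p = 0.350), a level 2.94-fold higher after x-rays. Itgb3 encodes the beta chain of the same integrin. It ran from 5.06 to 6.43 after neutrons, with a median of 5.42, and was 7.99, 6.98, 5.73, 7.09 and 6.87 after x-rays. The same mouse, x-ray replicate 3, was the one that overlapped, and the difference was -1.31 (SE 0.39, limma adjusted p = 0.350). Itgb3 rose by 1.66 after x-rays against controls (limma adjusted p = 0.0487) and was at 0.35 after neutrons (limma adjusted p = 0.43).

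The receptor for von Willebrand factor, by which platelets catch on an injured vessel wall, is built from the products of Gp1ba, Gp1bb, Gp5 and Gp9. Their differences were -0.93 (SE 0.33), -1.18 (SE 0.36), -1.05 (SE 0.34) and -1.03 (SE 0.36). Gp1bb ran from 2.24 to 3.69 after neutrons, with a median of 2.71, and was 4.52, 4.67, 3.02, 4.36 and 3.72 after x-rays. Its controls were 2.85, 2.08, 2.14, 2.31 and 1.85, all below every x-ray mouse. Gp1bb rose by 1.81 after x-rays (SE 0.34, limma adjusted p = 0.0399), while its difference after neutrons was 0.63 (SE 0.28, adjusted p = 0.19). Gp1ba rose by 1.37 after x-rays (SE 0.26), and Gp5 and Gp9, at 1.31 and 1.37, did not pass the test (limma adjusted p = 0.0553 and 0.0555).

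Tubb1 is the platelet form of beta tubulin, which builds the ring of microtubules under the platelet membrane. It ran from 1.46 to 2.71 after neutrons, with a median of 1.73, and was 3.23, 3.44, 2.32, 3.47 and 2.89 after x-rays. In the controls it was 2.13, 1.43, 1.51, 1.66 and 0.90, so neutron and control mice overlapped and all x-ray mice lay above the controls. The difference between the exposures was -1.12 (SE 0.31, limma adjusted p = 0.350). The probe lies on chromosome 2 of mouse build mm9, from 174283277 to 174283336 on the plus strand; the files do not say which exon or UTR it reads. Thbs1, which encodes thrombospondin 1 of the platelet granules, showed the largest call of the list after x-rays, a rise of 2.17 (SE 0.39, limma adjusted p = 0.0370), against 0.77 after neutrons (adjusted p = 0.24) and a direct difference of -1.40 (SE 0.50).

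**Figure D1:**
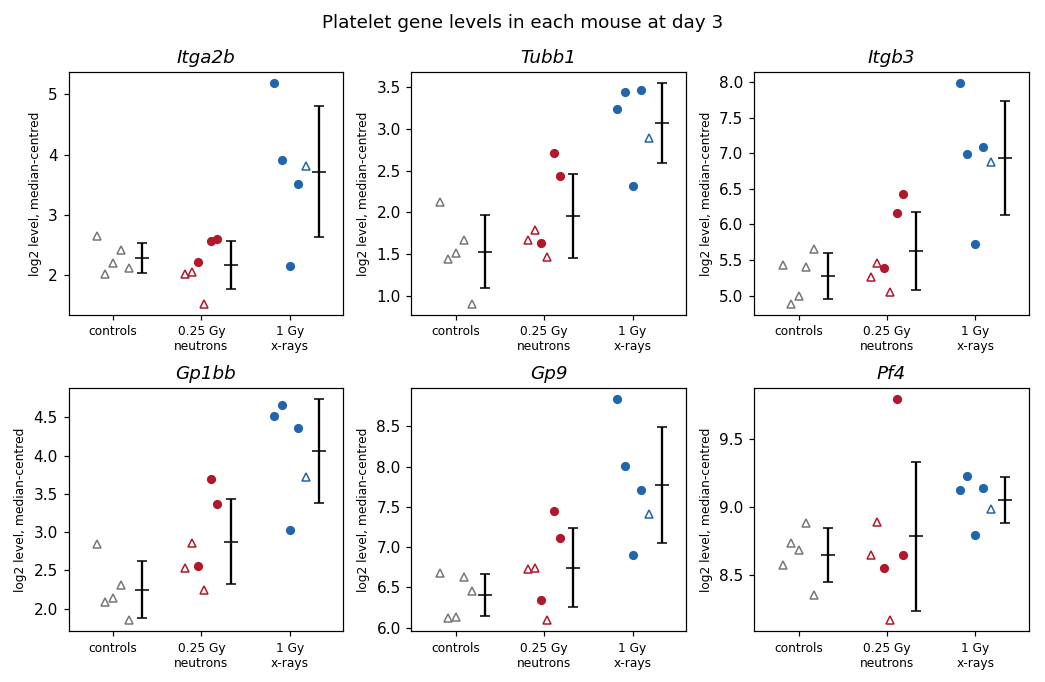
Log2 level, relative to the array median of detected probes, of Itga2b, Tubb1, Itgb3, Gp1bb, Gp9 and Pf4 in each mouse at day 3, by group. Filled circles are arrays of the scan date that both exposures share, open triangles arrays of other dates, and black bars the mean ± SD; 4 of 5 x-ray mice stand above the neutron mice for Itga2b, with x-ray replicate 3 among them.

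Within the list, the differences ran from -1.56 for Itga2b to -0.24 for Clu, which encodes clusterin. The chemokines of the platelet granules, Pf4 and Ppbp, were among the small ones, at -0.27 (SE 0.28) and -0.52 (SE 0.31). The membrane receptors Treml1, Gp6, Clec1b and Selp were at -1.30, -0.84, -0.72 and -0.83, the thrombin receptor gene F2rl2 at -0.83 and Vwf at -1.09. Nfe2, a transcription factor of megakaryocytes and red cell precursors, was at -1.11 (SE 0.40). The signalling gene Rgs18 was at -0.32 (SE 0.35). For only 2 of the 20 genes did the interval lie within 1 of 0. No gene of the list had every neutron mouse below every x-ray mouse, and x-ray replicate 3 was the lowest x-ray mouse for 16 of 20, while neutron replicate 5 or 6 was the highest neutron mouse for 19 of 20.

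**Figure D2:**
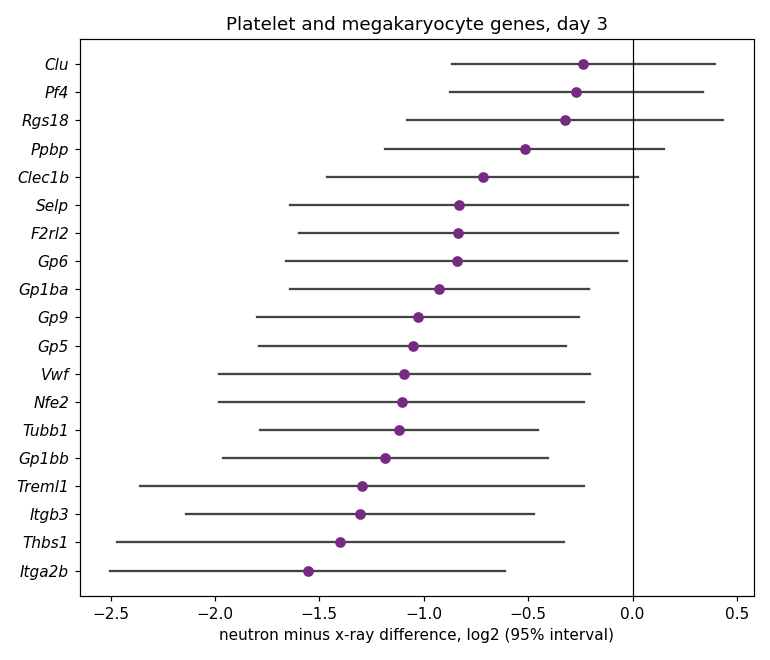
Neutron minus x-ray difference in log2 level for 19 of the 20 platelet and megakaryocyte genes at day 3, with 95% confidence intervals from limma. All 19 points lie below 0, from -1.56 to -0.24, and none of the 20 genes was called.

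As a mean over the 20 genes, the log2 level was 3.89, 4.05, 3.86, 3.52, 4.86 and 4.64 in neutron replicates 1 to 6 and 5.57, 5.32, 4.196, 5.25 and 4.901 in x-ray replicates 1 to 5. Control mice ran from 3.58 to 4.01. Neutron replicates 5 and 6 stood above all controls and above x-ray replicate 3, and below the other x-ray mice, replicate 5 only just. Neutron replicate 2 lay just above the highest control. Neutron replicates 1 and 3 lay within the range of the controls, and replicate 4 just below it. Among the 7 arrays of the shared scan date the median difference of the list was -0.69, again with 20 of 20 below 0, but 0 of 20 had an unadjusted p below 0.05. With spike-in centring the median was -0.41, with 16 of 20 below 0, where the median of all genes moved to 0.53. Leaving out 1 mouse at a time gave medians of -1.19 to -0.81.

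B cell genes were low after both exposures, and none was told apart between them. The median difference between them was 0.01 over the 19 of 22 genes tested, 0 were called, and 10 of 19 had an interval within 1 of 0, against 41.6% of all genes. Against controls the list median was -1.02 after neutrons and -1.004 after x-rays. After neutrons 6 of the 19 genes fell (Blk, Blnk, Cd72, Ebf1, Fcer2a and Ms4a1), beside 0.626% of all genes. After x-rays 1 fell (Fcer2a), beside 0.414%. The mean level of the list was 1.72 to 2.84 after neutrons, 1.49 to 2.89 after x-rays and 3.15 to 3.49 in controls, so that no exposed mouse reached the controls. Across the settings tried, the list median stayed below 0 against controls, from -1.26 to -0.55 after neutrons and from -1.81 to -0.70 after x-rays, and the number of genes that fell ran from 0 to 13 and from 0 to 12.

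Fcer2a, the low-affinity IgE receptor CD23 of mature B cells, was the member called in both. It ran from -0.16 to 1.33 after neutrons, with a median of 0.75, and was -0.19, 0.91, 0.76, 0.66 and 0.51 after x-rays. The controls, at 1.82, 1.92, 2.05, 1.97 and 2.31, were all higher. It fell by 1.30 after neutrons (SE 0.27, limma adjusted p = 0.0492) and by 1.49 after x-rays (SE 0.23, adjusted p = 0.0331), and the exposures differed by 0.19 (95% interval -0.50 to 0.87). Ms4a1, which encodes CD20, fell by 1.06 after neutrons (SE 0.23), was at -0.85 after x-rays (SE 0.24, limma adjusted p = 0.0763), and the exposures differed by -0.21 (95% interval -0.82 to 0.40). Blk, a kinase of B cell receptor signalling, and the inhibitory receptor gene Cd72 had the larger differences, -0.69 (SE 0.27) and -0.61 (SE 0.28), both lower after neutrons (limma adjusted p = 0.392 and 0.447), and were the only 2 of the list with an unadjusted p below 0.05.

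Genes of MHC class II, which B cells and dendritic cells use to show antigen, had a median difference of 0.15 between exposures over 10 genes tested. Against controls the medians were -0.94 after neutrons, where H2-DMb1 fell, and -1.07 after x-rays, where H2-Aa fell. H2-Aa, an alpha chain of the class II molecule, was at -1.05 after neutrons (SE 0.23, limma adjusted p = 0.0511) and fell by 0.94 after x-rays (SE 0.18, adjusted p = 0.0399), a difference of -0.11 (95% interval -0.69 to 0.47). The array annotation describes 94 transcripts as immunoglobulin or antibody chains, a set chosen after its values were seen. Of these, 23 fell after neutrons, beside 0.626% of all genes, and 19 after x-rays, beside 0.414%. Their medians were -0.97 and -0.83, and the median difference between the exposures was -0.13. The interval lay within 1 of 0 for 61 of these 94, against 41.6% of all genes. Immunoglobulin genes are near copies of each other, so that single probes may read several of them.

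**Figure D3:**
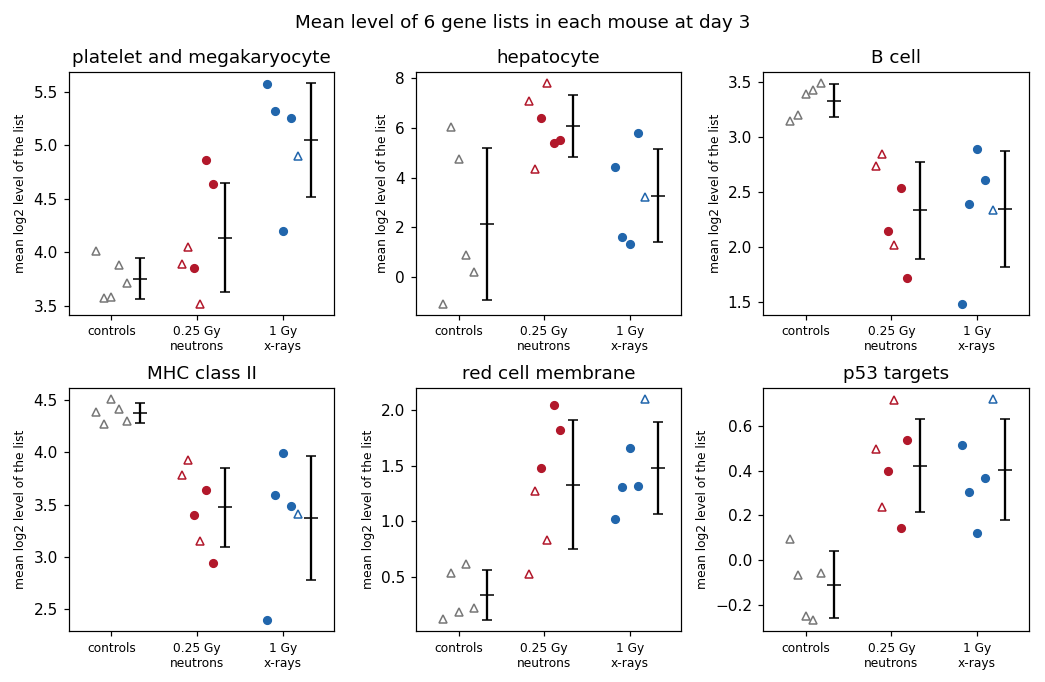
Mean log2 level of the platelet, hepatocyte, B cell, MHC class II, red cell membrane and p53 target lists in each mouse at day 3 after 0.25 Gy neutrons (6), 1 Gy x-rays (5) or sham exposure (5), with filled circles for the scan date that both exposures share, open triangles for other dates and black bars for the mean ± SD. No exposed mouse reaches the B cell level of the controls, at 3.15 to 3.49, and the platelet list runs from 3.52 to 4.86 after neutrons and from 4.196 to 5.57 after x-rays.

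Other white cell genes held 0 calls between the exposures, as did all genes, and many of their intervals were wide. Of the T cell list 25 of 25 genes were tested, with a median difference of -0.19 and 1 gene of unadjusted p below 0.05 (Bcl11b, a T cell transcription factor, -0.58). NK and cytotoxic genes had a median of -0.17 over 19 genes, mature neutrophil genes -0.25 over 18, granule proteins of immature neutrophils -0.03 over 11, monocyte genes 0.08 over 15 and eosinophil, basophil and mast cell genes 0.15 over 12. The interval lay within 1 of 0 for 15 of 25 T cell and 12 of 19 NK genes, against 41.6% of all genes. It did so for 4 of 18 mature neutrophil, 3 of 11 granule, 6 of 15 monocyte and 3 of 12 eosinophil, basophil and mast cell genes. Of the mature neutrophil genes, 15 of 18 were lower after neutrons. In the monocyte list F13a1, the coagulation factor XIII chain that platelets also hold, rose by 2.05 after x-rays and differed by -1.17 between exposures (limma adjusted p = 0.391). Cpa3, a mast cell protease gene, rose by 1.67 after neutrons, and Cxcr5, the chemokine receptor that leads B cells to follicles, fell by 1.01. Interferon-stimulated genes had a median of 0.21 over 27, with 21 differences above 0. Ifit2 went the other way, with a difference of -0.76 (limma adjusted p = 0.394). It was the 1 gene of the 27 with every neutron mouse below every x-ray mouse, beside 0.469% of all genes. MHC class I genes (-0.02 over 2), Toll-like receptors (-0.19 over 8), Schlafen genes (-0.32 over 6), chemokine receptors (-0.25 over 15), inflammatory genes (-0.28 over 11) and immediate early genes (-0.13 over 12) held 0 calls between exposures.

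In the list of red cell membrane and blood group genes, which young red cells carry, 3 of 18 genes rose after neutrons (Icam4, Kel and Rhd; list median 0.97), beside 0.543% of all genes, and 4 after x-rays (Epb4.2, Rhd, Sptb and Xk; list median 1.14), beside 1.58%. Between exposures the median was -0.11. With spike-in centring 1 gene was called after neutrons (list median 0.74) and 0 after x-rays (list median 0.33), with 1 of 18 at an unadjusted p below 0.05 after x-rays in place of 13. Across the settings tried the genes that rose numbered 0 to 7 after neutrons and 0 to 10 after x-rays. Ahsp, the chaperone that holds free alpha globin in red cell precursors, ran from 5.44 to 7.36 after neutrons, with a median of 6.85, and was 6.49, 6.67, 6.56, 6.29 and 7.37 after x-rays. Its controls were 4.55, 5.16, 4.47, 4.96 and 4.54, below every exposed mouse. Ahsp rose by 1.84 after neutrons (SE 0.38, limma adjusted p = 0.0492) and by 1.94 after x-rays (SE 0.25, adjusted p = 0.0284), and the exposures differed by -0.10 (95% interval -0.97 to 0.77). Rhd, the Rh blood group gene, rose by 1.71 (SE 0.37) and 1.82 (SE 0.27), with a difference of -0.11 (95% interval -0.98 to 0.75).

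Between the exposures, 1 of the 18 red cell membrane genes (Sptb) was lower after neutrons at an unadjusted p below 0.05. This is near the share of all genes in that direction, 5.29%. Sptb, which encodes the beta chain of the spectrin net under the red cell membrane, ran from -4.12 to -2.29 after neutrons, with a median of -3.75, and was -1.01, -2.04, -3.02, -2.10 and -1.93 after x-rays. It rose by 1.80 after x-rays (SE 0.35, limma adjusted p = 0.0403), was at 0.43 after neutrons (adjusted p = 0.47), and differed by -1.37 (SE 0.43, limma adjusted p = 0.350). Of 12 genes tested in the erythroid transcription factor list, 4 were lower after neutrons at a p below 0.05, beside 5.29% of all genes. These were Nfe2 at -1.11, Tal1 at -0.83, Epor at -0.82 and Gfi1b at -0.76. Tal1, Gfi1b and Nfe2 are also transcription factors of megakaryocytes, and Epor is the erythropoietin receptor. Tal1 rose by 1.00 after x-rays (SE 0.21) and was at 0.17 after neutrons (SE 0.26). The list median between exposures was -0.16, and with spike-in centring it lay at -0.18 after x-rays against controls, in place of 0.62.

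The genes of heme synthesis and iron uptake leaned to the other side, with 14 of 15 differences above 0 and a median of 0.32. Only 1 of the 15 had an unadjusted p below 0.05, near the share of all genes in that direction, 5.83%. Against controls their median was 0.22 after neutrons and 0.18 after x-rays, the latter -0.63 with spike-in centring. Cpox, which makes protoporphyrinogen from coproporphyrinogen, ran from 0.56 to 1.80 after neutrons, with a median of 1.14, and was 0.22, -0.03, 0.38, 0.41 and 0.61 after x-rays. Neutron replicate 2, at 0.56, was the only neutron mouse below the highest x-ray mouse, and the difference was 0.82 (SE 0.25, limma adjusted p = 0.350). Against controls 2 of the 15 rose after neutrons, beside 0.543% of all genes, and 0 after x-rays, beside 1.58%. Across the settings tried 0 to 3 rose after neutrons and 0 to 1 after x-rays. Urod, an enzyme of the middle of the path, rose after neutrons by 1.06 and was at 0.71 after x-rays, where it did not pass the test. Genes that clear ubiquitin-tagged proteins and organelles from reticulocytes had a median of 0.12 over 18, with Trim10 up by 1.64 after neutrons, and globin genes, which the depletion step lowers, 0.24 over 6.

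The p53 targets were above controls in both groups, with list medians of 0.61 after neutrons and 0.60 after x-rays over 19 of 30 genes tested, although with spike-in centring the x-ray median was -0.21. Between exposures the list median was -0.16, 5 of 19 genes were lower after neutrons at a p below 0.05, beside 5.29% of all genes, and 1 was higher. Phlda3, a p53-induced repressor of AKT signalling, ran from 1.22 to 2.15 after neutrons, with a median of 1.58, and was 3.10, 2.92, 1.64, 2.65 and 2.47 after x-rays. The controls were 1.24, 0.55, 0.48, 0.69 and 0.75. Phlda3 rose by 1.81 after x-rays (SE 0.29, limma adjusted p = 0.0331), was at 0.90 after neutrons (SE 0.23, adjusted p = 0.0674), and differed by -0.92 (SE 0.30, limma adjusted p = 0.354), with x-ray replicate 3 again inside the neutron range. Psrc1, a spindle gene, rose by 1.42 after x-rays and was at 0.87 after neutrons, a difference of -0.55 (SE 0.24).

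The death gene Bax and its activator Bbc3 (PUMA) differed by -0.62 (SE 0.28) and -0.51 (SE 0.22), and Zmat3, an RNA-binding target, by -0.60 (SE 0.27). Dglucy, a mitochondrial enzyme gene, rose by 0.96 after neutrons (SE 0.19, limma adjusted p = 0.0492) and was at 0.86 after x-rays (adjusted p = 0.0525), a difference of 0.10 (95% interval -0.40 to 0.60). Cdkn1a, the p21 inhibitor of cell cycle kinases, was at 1.40 after neutrons and 1.78 after x-rays, neither called, and differed by -0.39 (95% interval -1.37 to 0.60), its x-ray mice being spread from -2.57 to 0.03. Ccng1 differed by -0.38 (SE 0.23). Perp, a membrane protein gene that p53 induces, was the member on the other side, at 2.59 (SE 0.60, limma adjusted p = 0.350), and with the level of the hepatocyte list, described below, as a covariate it was 0.78. The direct differences depend on the scaling: with spike-in centring those of Bax, Bbc3, Cdkn1a and Ccng1 were -0.06, 0.05, 0.18 and 0.19. Targets that did not pass the detection and variation filters were Btg2, Eda2r, Ercc5, Fas, Mdm2, Pmaip1, Polk, Sesn2, Tnfrsf10b, Trp53inp1 and Xpc.

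Lists of the cell cycle and of repair gave small medians between exposures. Mitosis genes were at 0.02 over 24 genes, with Ccnb1 (cyclin B1) at 0.75 and Prc1 at 0.57 at a p below 0.05, DNA replication genes at -0.16 over 21 and the E2F family at -0.12 over 8. Double-strand break repair was at -0.19 over 10, excision and mismatch repair at -0.12 over 10 and the BCL2 family at -0.29 over 7. Ribosomal protein genes, which every cell uses, had a median of -0.06 over 18, and for 18 of 18 the interval lay within 1 of 0. Proteasome genes were at 0.00 over 6. The 9 genes that the study followed as turning direction between its days (E2f2, Mta3, Mtmr3, Slc25a51, Wdr26, Anp32e, Bsdc1, Eif5 and Ubac1), chosen on arrays of this series, had a median of 0.28 and 0 with a p below 0.05.

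**Figure D4:**
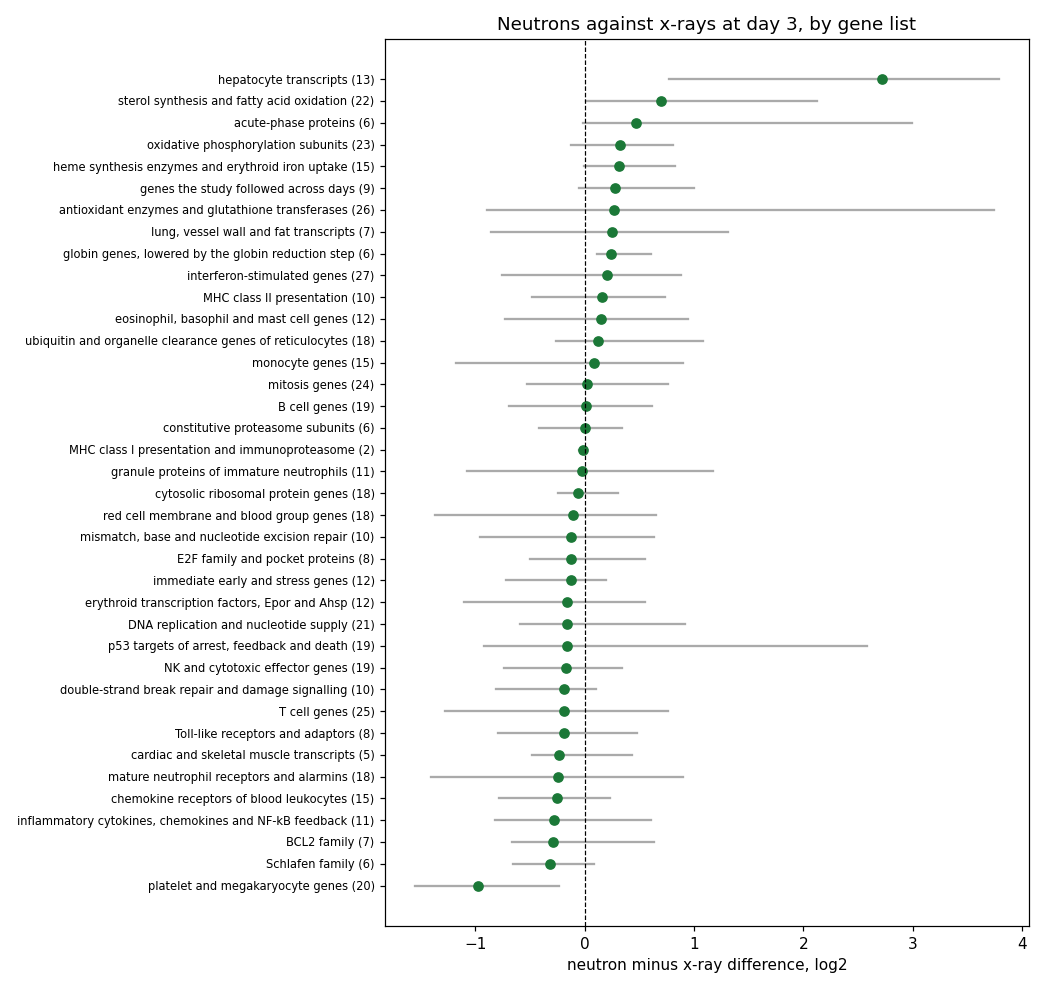
Median neutron minus x-ray difference in log2 level of each gene list at day 3, as points, with lines from the lowest to the highest member, the number of genes tested in parentheses and the median of all genes dashed. The platelet list, at -0.98, and the hepatocyte list, at 2.72, lie farthest from 0.

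Liver transcripts stood higher in the neutron blood. Of 30 hepatocyte genes 13 passed the filters, all 13 with a difference above 0, a median of 2.72 and 12 with a p below 0.05, beside 5.83% of all genes in that direction. Examples are Apoc3 (3.79), Ahsg (3.67), Cyp2e1 (3.29) and Apoa2 (2.47), which encode lipoprotein components, fetuin A and a drug-metabolizing enzyme. The mean level of the list was 7.09, 4.36, 6.38, 7.81, 5.40 and 5.50 in neutron replicates 1 to 6, 4.44, 1.61, 1.33, 5.79 and 3.22 in x-ray replicates 1 to 5, and -1.07, 6.02, 4.73, 0.87 and 0.20 in control replicates 1 to 5. The sham-exposed mice alone thus spanned the range of the x-ray mice, and 0 of 13 genes were called against controls in either group. Of the 30 genes, 28 were well above background on every neutron array, 24 on every x-ray array and 16 on every control array, and the log2 of the summed level ran from 9.99 to 12.92, from 7.22 to 11.49 and from 6.08 to 11.58. Of 20 heart and skeletal muscle genes, which could enter with a cardiac puncture, 3 were above background on every neutron array and 4 on every x-ray array, with a median difference of -0.24 over the 5 tested. Myl2, Myl3 and Tnni2 were above background on every array, Mylpf on 5 of 6 neutron, 5 of 5 x-ray and 4 of 5 control arrays, Nppa on 5, 3 and 5, Myh7 on 2, 4 and 5, and Ckm, Myh4 and Actc1 on none. The log2 of the summed level of these 20 genes ran from 0.75 to 1.61 after neutrons, from 0.64 to 2.06 after x-rays and from 1.01 to 1.90 in controls, and their part in the differences was not tested. Lung, vessel wall and fat genes had a median of 0.25 over 7.

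Several metabolic genes that liver also expresses were higher in the neutron blood too. Sterol and fatty acid genes had 22 of 22 differences above 0 and a median of 0.70, with Ehhadh, an enzyme of fatty acid oxidation in peroxisomes, at 1.93. Acsl1, which activates fatty acids, rose by 1.58 after neutrons against controls. Oxidative phosphorylation genes were at 0.33 over 23, with Ndufa4 up by 0.99 after neutrons, and acute-phase genes at 0.47 over 6. Among antioxidant genes (0.27 over 26), the glutathione transferases Gsta3 and Gstm1 were at 3.75 and 2.40. Against controls 2 of the 26 rose after x-rays, Gclm by 0.84 and Nqo1 by 1.61, beside 1.58% of all genes. These 2 differed between exposures by -0.16 and -0.33. After neutrons 1 of the 26 rose, Mgst3 by 1.70, beside 0.543%. With spike-in centring 5 rose after neutrons and 0 after x-rays, with list medians of 0.43 and -0.13, in place of 0.67 and 0.68. With the hepatocyte level as a covariate, the median of the sterol list was -0.29, that of oxidative phosphorylation 0.03 and that of the platelet list -1.04. Of the 20 platelet genes, 19 were then below 0, and 8 had an unadjusted p below 0.05 in that direction, in place of 14. The covariate itself differed between the groups, with means of 6.09 after neutrons and 3.28 after x-rays. The cause of these shifts was not tested. Without x-ray replicate 4, which had the highest liver level of its group, 58 of 10863 genes were called between the exposures, all 58 higher after neutrons. Among them were 5 of the 13 hepatocyte genes tested.

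The 5 genes of smallest p in each direction were named by rule, and none was called. Higher after neutrons were Cyp4a31, a fatty acid hydroxylase gene of liver and kidney, BC025446, Adamts13, the protease that cuts von Willebrand factor and is made in liver, Zfp36l3 and the kallikrein gene Klk1. Cyp4a31 ran from -0.95 to 0.83 after neutrons, with a median of -0.05, and was -4.30, -2.98, -2.43, -1.58 and -1.90 after x-rays, so that the groups did not overlap. Its difference was 2.58 (SE 0.51, limma adjusted p = 0.350), while the controls spread from -2.98 to 1.07 and overlapped both groups, with x-ray replicate 1 below them all. BC025446 differed by 1.94 (SE 0.39). Adamts13 was not well above background on any x-ray array. With x-ray values raised to the lowest level well above background on each array, the neutron mean was 2.56-fold higher. With another background correction (normexp) the difference of Adamts13 was 0.66, in place of 1.83. Klk1 was above background on 1 of 5 x-ray arrays, and Zfp36l3 had a value on 1 x-ray array alone, the other 4 spots being marked as outliers, so that its difference of 3.54 rests on that array.

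Lower after neutrons were Eef2k, Tmem266, Sh3kbp1, Pygb and Gm15645. Eef2k, the kinase that slows translation elongation, ran from -3.72 to -3.26 after neutrons, with a median of -3.34, and was -1.69, -2.64, -2.66, -2.64 and -2.19 after x-rays. Every neutron mouse lay below every x-ray mouse, the controls, at -3.49 to -2.05, overlapped both, and the difference was -1.07 (SE 0.24, limma adjusted p = 0.350). With another background correction (normexp) the difference of Eef2k was 0.00. Gm15645, a non-coding RNA, ran from 1.71 to 2.44 after neutrons, with a median of 2.11, and was 3.59, 3.47, 2.51, 2.99 and 2.86 after x-rays, with controls at 1.73 to 1.80. It rose by 1.32 after x-rays (SE 0.23, limma adjusted p = 0.0369), was at 0.33 after neutrons (SE 0.18), and differed by -0.99 (SE 0.26). Sh3kbp1, an adaptor of receptor uptake, and Pygb, a glycogen phosphorylase, also did not overlap, at -0.99 (SE 0.25) and -1.04 (SE 0.27), and Tmem266 differed by -1.41 (SE 0.35), with x-ray replicate 5 at 0.94 among the neutron mice.

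**Figure D5:**
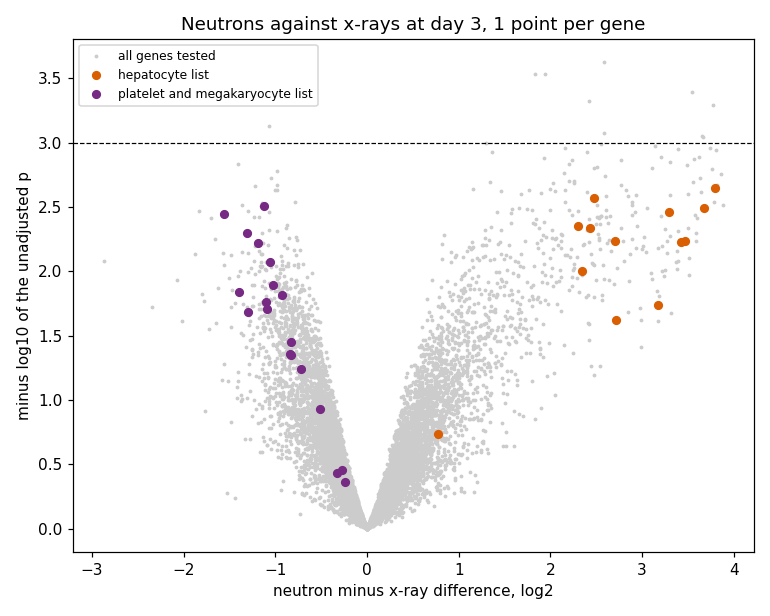
Neutron minus x-ray difference in log2 level (x axis) and minus log10 of the unadjusted limma p (y axis, a log scale) for each of 10863 genes at day 3, with the hepatocyte list in orange and 19 genes of the platelet list in purple; the dashed line is p 0.001. The platelet genes lie between -1.56 and -0.24, the 13 hepatocyte genes all above 0, and 10 genes lie above the line.

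The same difference between 0.25 Gy of neutrons and 1 Gy of x-rays was set against that of the other days by an interaction term. Between day 3 and day 1, 0 genes were called (0%) and 598 had a p below 0.05 (5.50%). Between day 3 and day 7, 0 were called (0%) and 1814 had a p below 0.05 (16.7%). Of the platelet list, 11 of 20 genes had a p below 0.05 against day 7, and the median of the interaction was -1.11, the list median between exposures being 0.18 on day 7 and -0.98 on day 3. Against day 1, where the list median was -0.44, 1 of 20 did. Tubb1 differed by -1.96 between the days (limma adjusted p = 0.15) and Itga2b by -1.88 (limma adjusted p = 0.16). Of the hepatocyte genes, 12 of 13 had a p below 0.05 against day 7 with a median of 4.12. Cpox had an interaction of 1.96 (SE 0.35, limma adjusted p = 0.15), its difference being 0.82 on day 3 and -1.14 on day 7.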

How the data were processed

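RNA of whole blood, depleted of globin, had been labelled with Cy3 and hybridised to one-colour Agilent mouse arrays, 1 sample per array. Per the file headers, the deposited intensity of each spot was background-subtracted by Agilent Feature Extraction 12.0.2 (a version the submitters' notes also give), with probes placed on mouse build mm9. From these intensities, control spots were left out, spots marked as outliers were set to missing, and the median log2 value of the detected probes was subtracted on each array; for 294 of 10863 genes at least 1 of the 11 arrays had no value and was dropped from the fit of that gene. As in the methods of the study, probes failing detection on 25% or more of the 56 arrays of days 1 and 7, or differing 1.5-fold from their median on under 20% of them, were removed, and the brightest probe stood for its gene. Names were updated by accession for 1403 probes. The value table of the whole series was not used, since many of its columns follow another array.

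Groups were compared with limma 3.58.1 in R 4.3.3, on the groups compared alone, 2-sided, and the code was tested on simulated data. The design text speaks of independent experiments and each sample was taken at death, so the replicates are separate mice. Motifs were searched in RefSeq promoters of another build, GRCm38.p6. The genes named are, by rule, the 5 of smallest p in a direction where under 5 were called, members of the p53, E2F, Schlafen and day-turning lists, and the leading or called members of the other lists, while the platelet list was given in full but for 1 gene, and 3 genes in all are not reported here. The members and the 38 lists of 740 genes, 8 of them without a probe of that name, were chosen with earlier results of these data known, and no list was tested. Alternatives covered background, centring, filters, probe choice, samples, test, scan date, slide, replicate number and a liver covariate.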

Additional observations from a re-analysis of the deposited data

Results flagged for a closer look

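Among 209 groups of mice (list means and named genes), 14 had a highest or lowest mouse farther from the rest than the 95% limit of Dixon's test, which chance alone gives in about 1 of 20 groups. No value was left out for this. Neutron replicate 4 was low for T cell genes (1.45, the next mouse 2.14) and for ribosomal protein genes (7.41, next 7.72), and neutron replicate 5 was high for globin genes (9.05, next 8.15). X-ray replicate 1 was low for the clearance genes of reticulocytes (4.19, next 5.62), and x-ray replicate 3, the mouse with the low platelet level, was high for interferon-stimulated genes (1.69, next 1.41) and for excision and mismatch repair (1.20, next 0.97). Control replicate 1 was high for granule proteins of immature neutrophils (2.41, next -0.01), for mature neutrophil genes (3.01, next 1.89) and for inflammatory genes (0.745, next 0.325), and control replicate 5 was low for MHC class I genes (2.37, next 2.82). Of the genes named, Adamts13 was low in control replicate 1 (-6.01), Zfp36l3 high in neutron replicate 5 (2.02), Klk1 high in x-ray replicate 3 (-2.68) and Tmem266 low in x-ray replicate 5 (0.944). The part of these mice in the differences between groups was not tested beyond leaving out each in turn.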

How the results depend on the processing

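Between the exposures, the count of called genes stayed at 0 except with spike-in centring (383, of them 382 higher after neutrons, where the median of all genes moved to 0.53), the replicate block (208, of them 207 higher) and without x-ray replicate 4 (58), so that leaving out 1 mouse gave 0 to 58. Of these calls 12, 8 and 5 were hepatocyte genes and 0 were platelet genes. With the replicate block and without x-ray replicate 4, the genes tested were 10863, among them 13 hepatocyte and 20 platelet genes. Nearly all calls were higher after neutrons, while at least 16 of the 20 platelet genes lay below 0 in these settings. The 0 platelet calls therefore say little about that list. After neutrons against controls, in place of 127, the count was 0 with normexp background correction, with filters set on the day 3 arrays, with all 16 arrays of day 3 in one fit, with scan date as a block, with slide as a random block and with the replicate block. It was 1 without the detection filter, 200 with quantile normalization, 242 with centring on the 75th percentile, 247 without the 1.5-fold filter and 300 with spike-in centring, and 0 to 279 on leaving out 1 mouse. After x-rays against controls, in place of 217, it was 0 without the detection filter and with filters set on the day 3 arrays, 17 with normexp, 69 with the 75th percentile, 123 with quantile normalization, 422 with spike-in centring, 584 with slide as a random block and 1506 with scan date as a random block, and 0 to 357 on leaving out 1 mouse. No scan date or slide held both x-ray and control arrays, so these random blocks cannot take out a difference between dates or slides. The highest counts after x-rays of the platelet, B cell and red cell membrane lists, 18, 12 and 10, came with scan date as a random block. The interaction with day 1 gave 2 with scan date as a block and 1 with slide as a random block, and that with day 7 gave 181 with spike-in centring, 1 with dim spots missing and 0 to 95 on leaving out 1 mouse, the 95 without x-ray replicate 4. The cause was not tested for any of these. The slide block and the restriction to the shared scan date were chosen after seeing the data.

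The labels do not say that replicate numbers pair the samples. The deviations of same-numbered neutron and x-ray arrays correlated at 0.27, 0.46, -0.31, 0.27 and -0.10. So few mixed values cannot settle whether the numbers pair the samples, and the replicate block rests on a shared number only. Of 194 genes examined one by one, 93 changed sign between the exposures under some alternative, among them 6 of the 62 with an unadjusted p below 0.05, and 15 were called under some. Low signal limits Adamts13, Klk1 and Zfp36l3, whose x-ray spots were mostly dim or marked as outliers.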
